A study of Mus musculus with 6 samples.

Results

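The histone genes are described here on 6 mouse leukemia arrays. They encode the proteins around which DNA is wound: the core histones H2A, H2B, H3 and H4, the linker histone H1, and variants that replace a core or linker histone in parts of the genome. Members were chosen by name alone, as the probes whose platform annotation carries a current or former symbol of an H1, H2A, H2B, H3 or H4 gene. That rule took 114 probes for 79 genes, out of 45281 probes and 19057 genes with a single symbol. The genes were set into 5 linker genes, 16 core H2A, 13 core H2B, 9 core H3 and 13 core H4 genes, 7 variant genes, and 16 germline histones or pseudogenes. Macroh2a1, Macroh2a2 and Cenpa encode histone variants under symbols that the rule does not take, and their values are given beside the members.

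The samples were 3 arrays labelled Klf4-deficient and 3 control arrays (labelled wild type), all from mice carrying T cell acute lymphoblastic leukemia (T-ALL) that had been induced with NOTCH1, the receptor whose activation drives this leukemia. Male animals, bone marrow, GFP expression and the CD4+CD8+ sort were shared by every sample, as was the time of 4 weeks after transplantation. KLF4 is a zinc finger transcription factor, and the study's title places its loss upstream of the Map2k7 and Jnk kinases. The labels do not give the Klf4 allele, the agent or Cre driver that removed it, the form of NOTCH1 or the strain. Separate animals are not named for the arrays of a group, and the p-values therefore measure a spread between samples that may be technical.

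Most core and linker histones are made from replication-coupled genes that lie in clusters, lack introns and are transcribed mainly in S phase, when new DNA has to be packaged. Their messages end in a stem-loop in place of a poly(A) tail, and the protein SLBP binds that loop and carries the message through processing and translation. Variant genes such as H3f3a and H2az1 stand alone in the genome, give polyadenylated messages and are expressed outside S phase as well. The labels do not say how the RNA was primed for labelling, so whether these signals count all replication-coupled messages or mainly those with a poly(A) tail is not given in the sources used here.

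Signals are bead intensities after quantile normalization between arrays. A log2 difference is Klf4-deficient minus control from limma, with its standard error (SE). An adjusted p is limma's, with Benjamini-Hochberg adjustment over all 19057 genes. A signal counted as above background when it passed a limit of 21.8 to 23.7, depending on the array. The mean deposited signal was 426, 432 and 359 in Klf4-deficient arrays 1, 2 and 3, against 442, 417 and 445 in control arrays 1, 2 and 3. Markers of the sorted cells were present: Cd8b1, a chain of CD8, averaged 27020.3 ± 2369.6 in Klf4-deficient and 27882 ± 1219 in control arrays, and Cd4 averaged 1276 ± 214 in Klf4-deficient and 1249 ± 262 in control arrays (SD, n = 3 each). Cd8a lay near the limit, and the T cell receptor signal modulator Cd5 was under it on every array. The check of the targeted gene did not go with the labels. Klf4 had signals of 82.1, 45.1 and 93.8 on the arrays labelled Klf4-deficient, against 41.5, 18.1 and 23.4 on control arrays, a log2 difference of 1.03 ± 0.33 (SE, adjusted p = 0.571, limma). The position of the Klf4 probe against the deletion is not known here, so the probe may not report it, and every direction given here rests on the labels: a Klf4-deficient array is an array that carries this label.

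Core H2B, H3 and H4 genes were lower on the arrays labelled Klf4-deficient, by a median of 0.39, 0.33 and 0.40 on the log2 scale, while the variants lay near their control level. No single gene passed the adjusted threshold. All 13 H4 genes and all 9 H3 genes had a log2 difference below 0, as did 12 of 13 H2B genes, 13 of 16 H2A genes, 4 of 5 linker genes and 7 of 7 variants. The class medians were -0.40 for H4, -0.39 for H2B, -0.33 for H3, -0.22 for the linker genes, -0.12 for H2A and -0.06 for the variants. The linker value is that of H1f3, a gene under the limit on every array, and over the 3 linker genes above the limit the median was -0.57. Over the 9208 genes of the whole table with a mean signal above the limit the median was -0.01.

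**Figure D1:**
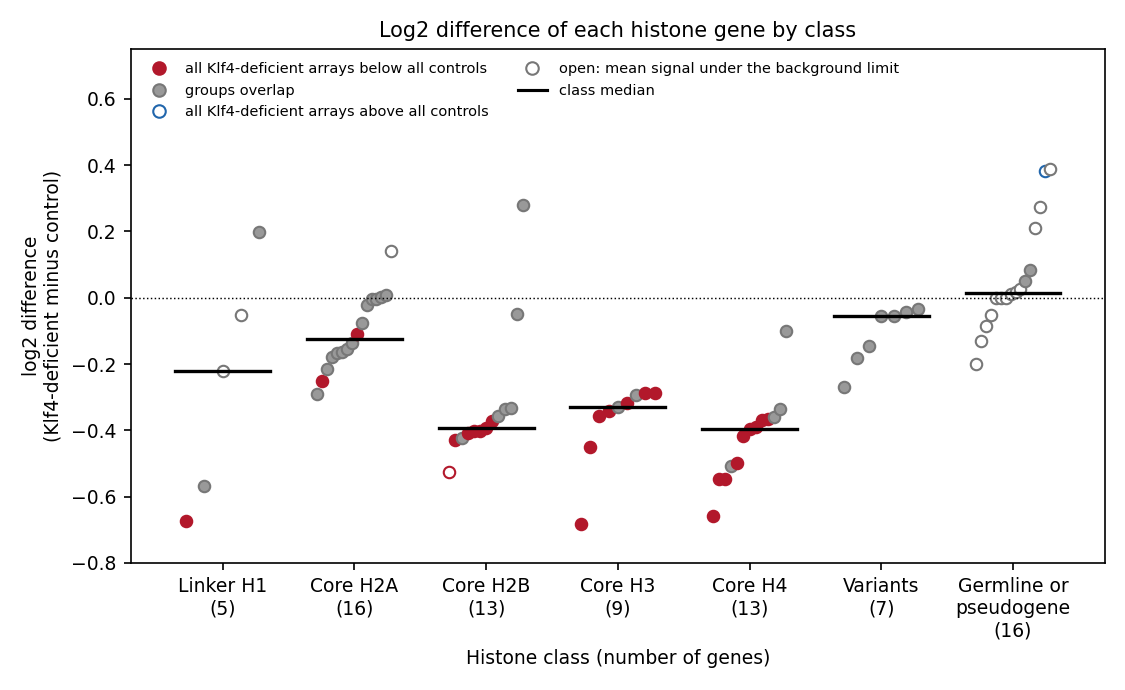
Log2 difference (Klf4-deficient minus control) of the 79 histone genes by class, 1 point per gene; filled points have a mean signal above the background limit, open points do not, and black bars are class medians. Red points are genes whose 3 Klf4-deficient arrays lie below all 3 controls, as for 6.09% of all genes and 9.63% of genes with a mean above the limit. They make up 9 of 13 H4, 7 of 9 H3, 7 of 13 H2B and 0 of 7 variant genes.

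At an adjusted p under 0.05 limma called 0 of the 79 genes, where 0.0105% of all genes (2 of 19057) were called. The smallest adjusted p among the members was 0.312, for H2bu2, whose signal was under the limit on every array. The next was 0.358, for H4c3. At an unadjusted p under 0.05, 25 members were lower and 0 were higher, against 4.09% of all genes lower and 3.51% higher. The 25 were 9 H4, 7 H3, 7 H2B, 1 H2A and 1 linker gene. The count was 10 without control array 2, where 3.81% of all genes were lower, 10 without control array 3 (3.56%), 12 without Klf4-deficient array 3 (3.66%), and 14 with the replicate number as a block (3.59%). In 26 members every Klf4-deficient array lay below every control, and in 1, the germline gene H2al1n, every one lay above, where the share over all genes was 6.09% below and 5.48% above. The same counts were also taken over genes with a mean above the limit. There were 61 such members, 60 of them above it on all 6 arrays. Of these, 24 of 61 were lower at an unadjusted p under 0.05, and 0 were higher, against 6.31% and 4.72% of such genes. Of the 61, 25 had groups that lay apart with Klf4-deficient lower and 0 with Klf4-deficient higher, against 9.63% and 7.71%. In all, 55 of 61 had a difference below 0, against 52.1%. The members share probe chemistry, sequence and expression timing, so these counts are not independent observations, and no test was made over the list.

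**Figure D2:**
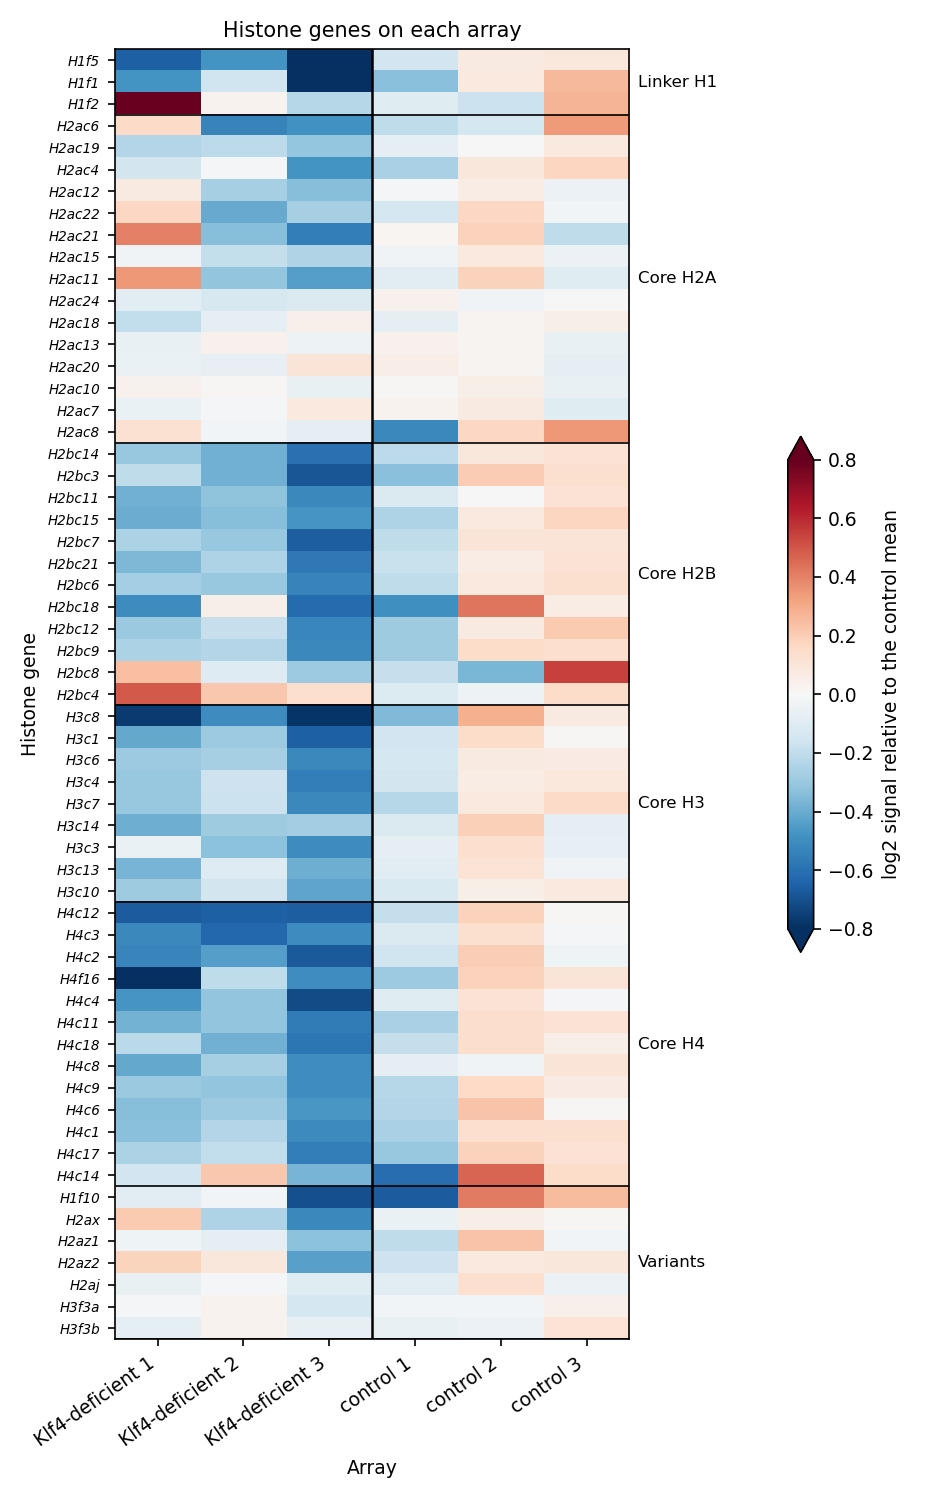
Log2 signal relative to the control mean on each array (columns) for the 59 linker, core and variant genes with a mean above the background limit (rows, grouped by class); colours are capped at the ends of the scale. The H2B, H3 and H4 blocks are mostly blue on all 3 Klf4-deficient arrays, with H2bc4, H2bc8, H2bc18 and H4c14 as exceptions on 1 or more of them, and the H2A and variant blocks are mixed.

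Promoters of the replication-coupled genes carry short elements that differ by class, and these are described here. Whether they go with the log2 differences was not tested. Sequences of the 250 bases before the annotated start came from RefSeq on GRCm38.p6, and 72 of the 79 genes had an entry. Promoters are counted by entry, 73 in all, because H2bc6 was entered more than once. Motifs searched on both strands were GGTCC (the core of the H4 site bound by HINFP), CCAAT (bound by NF-Y), ATTTGCAT (the octamer bound by OCT1), AAACACA (the H1 box), TATAAA and GGGCGG (a GC box). GGTCC was in 11 of 12 H4 promoters, against 39.75% of the 32851 promoters in the table. CCAAT was in 16 of 16 H2A, 12 of 12 H2B, 6 of 7 H3 and 5 of 5 linker promoters, against 33.85% of all. It was also in 5 of 6 variant and 8 of 15 germline promoters but in 3 of 12 H4 promoters. The octamer was in 6 of 16 H2A and 6 of 12 H2B promoters and in 0 of 12 H4 and 0 of 7 H3 promoters, against 1.601% of all. The H1 box was in 4 of 5 linker promoters, against 6.246% of all. The GC box was in 9 of 12 H4 and 5 of 6 variant promoters and in 0 of 12 H2B promoters, against 32.74% of all, and TATAAA was in 6 of 12 H4, 6 of 12 H2B and 4 of 5 linker promoters, against 12.37%. A match is a string of letters and was not tested as a binding site. Motifs in different letters can overlap, as GGTCC and the GC box do in the H4c12 promoter. The promoters printed, with motif matches on either strand in capitals, are those of the H4 gene with the most negative log2 difference, an H3 gene and an H2B gene of the lower classes, the lowest and highest linker genes, and the H2A.Z variant gene:
H4c12 (chr13:21750554-21750803, minus strand): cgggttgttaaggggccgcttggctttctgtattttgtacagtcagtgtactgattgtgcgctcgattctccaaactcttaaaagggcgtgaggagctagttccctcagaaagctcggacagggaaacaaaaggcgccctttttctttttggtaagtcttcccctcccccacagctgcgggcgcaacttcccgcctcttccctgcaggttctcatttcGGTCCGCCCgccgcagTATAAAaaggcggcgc
H3c6 (chr13:23562386-23562635, minus strand): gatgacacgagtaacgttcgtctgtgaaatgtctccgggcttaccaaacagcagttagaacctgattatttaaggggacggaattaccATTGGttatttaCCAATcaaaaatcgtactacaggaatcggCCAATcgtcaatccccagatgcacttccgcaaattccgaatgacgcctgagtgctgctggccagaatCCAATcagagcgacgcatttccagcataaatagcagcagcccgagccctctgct
H2bc14 (chr13:21721794-21722043, plus strand): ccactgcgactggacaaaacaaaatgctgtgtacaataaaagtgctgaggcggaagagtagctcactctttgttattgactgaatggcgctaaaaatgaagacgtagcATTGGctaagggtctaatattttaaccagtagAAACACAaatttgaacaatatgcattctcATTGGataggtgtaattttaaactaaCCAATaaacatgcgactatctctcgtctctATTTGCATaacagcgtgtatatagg
H1f5 (chr13:21780626-21780875, minus strand): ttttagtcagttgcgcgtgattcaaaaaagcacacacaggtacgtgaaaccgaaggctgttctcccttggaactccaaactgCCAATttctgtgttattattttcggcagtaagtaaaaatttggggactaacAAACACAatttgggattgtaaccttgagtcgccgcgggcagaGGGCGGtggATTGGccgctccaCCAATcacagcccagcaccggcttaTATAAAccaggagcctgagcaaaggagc
H1f2 (chr13:23738557-23738806, plus strand): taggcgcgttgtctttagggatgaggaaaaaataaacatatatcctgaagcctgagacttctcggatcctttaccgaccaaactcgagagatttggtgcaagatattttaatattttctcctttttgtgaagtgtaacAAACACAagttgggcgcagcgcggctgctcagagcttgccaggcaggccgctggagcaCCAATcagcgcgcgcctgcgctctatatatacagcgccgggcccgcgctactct
H2az1 (chr3:137864237-137864486, plus strand): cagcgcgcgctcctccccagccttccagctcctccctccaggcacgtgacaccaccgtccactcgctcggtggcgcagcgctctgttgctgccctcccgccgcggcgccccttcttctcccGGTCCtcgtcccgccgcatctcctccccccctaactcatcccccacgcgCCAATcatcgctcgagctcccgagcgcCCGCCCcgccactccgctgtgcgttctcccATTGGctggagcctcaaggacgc

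The linker histones H1 bind where DNA enters and leaves the nucleosome and help fold chromatin. Of the 5 linker genes, H1f1, H1f2 and H1f5 were above background, and H1f3 and H1f4 were under the limit on every array. H1f5 had signals of 94.5, 109 and 77.9 on Klf4-deficient arrays, against 140.0, 167 and 168 on control arrays. The groups did not overlap, and the log2 difference was -0.67 ± 0.14 (SE, adjusted p = 0.429, limma). H1f1 read 57.1, 75.3 and 32.8 on Klf4-deficient arrays and 64.8, 91.7 and 106 on control arrays, so that the groups overlapped (-0.57 ± 0.30, adjusted p = 0.762). H1f2 read 4963, 2918 and 2445 on Klf4-deficient arrays and 2668, 2539.6 and 3454 on control arrays. Klf4-deficient array 1 was the highest of the 6. The difference was 0.20 ± 0.31 (adjusted p = 0.908) with that array and -0.10 without it. The medians of the class rested on few genes: -0.22 over all 5 and -0.57 over the 3 above the limit.

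Core H2A pairs with H2B in the dimers that flank H3 and H4 within the nucleosome. Of its 16 genes 15 were above background on all arrays, with H2aw on chromosome 11 as the exception. H2ac19 was the single H2A gene with an unadjusted p under 0.05: it read 1193, 1215 and 1133 on Klf4-deficient arrays, against 1332, 1405 and 1490.2 on control arrays. These groups lay apart, with a difference of -0.25 ± 0.05 (SE, adjusted p = 0.429, limma). H2ac24 also lay apart, at 33855, 32898 and 33122 on Klf4-deficient arrays, against 36746, 35176 and 35841 on control arrays (-0.11 ± 0.05, adjusted p = 0.745). The other H2A genes overlapped between groups.

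For 7 H2A genes the mean signal was over 20000, a level that 120 probes of the whole table reached. H2ac10 read 37152, 36459.6 and 34755 on Klf4-deficient arrays and 36459.6, 37445 and 34755 on control arrays, a difference of -0.0038 ± 0.064. H2ac13 (-0.02 ± 0.06), H2ac20 (-0.0047 ± 0.079) and H2ac7 (0.0033 ± 0.075) likewise lay within 1 SE of 0. H2ac12 was at -0.18 ± 0.13 and H2ac15 at -0.16 ± 0.08. Other probes of these genes gave lower values in places. The second H2ac20 probe, with a mean signal of 188.9, stood at -0.50 ± 0.09 (adjusted p = 0.531 with every probe tested), and the second H2ac7 probe, at 22107, stood at -0.22 ± 0.08 (adjusted p = 0.786 in the same fit). The second H2ac10 probe, at 19754, stood at -0.09 ± 0.07. Over the 8 H2A genes with a mean signal above 10000 the median difference was -0.07, and over the 8 below it -0.15. This split was made after the data were seen. The dimmer genes include H2aw, above the limit on 2 arrays, and the widely spread H2ac11 (-0.14 ± 0.24) and H2ac21 (-0.16 ± 0.28). Whether the brightest probes were near saturation was not tested.

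Among the dimmer H2A genes H2ac19 and H2ac18 had tight groups, while H2ac21 and H2ac11 spread widely. H2ac21 read 4397, 2618 and 2266 on Klf4-deficient arrays and 3365, 3779 and 2893 on control arrays. H2ac11 read 9419.5, 5927 and 5438 on Klf4-deficient arrays and 6964, 8393 and 6922 on control arrays. In each, Klf4-deficient array 1 was the highest of the 6 and array 3 the lowest. Array 1 lay above every control for 4 of 16 H2A genes, 2 of 5 linker genes and 2 of 7 variants, for 1 of 13 H2B genes, and for 0 of 9 H3 and 0 of 13 H4 genes, where the share over all genes was 23.9%. Array 3 was the lowest of the 6 for 45 of the 79 members, against 20.3% of all genes and 29.9% of genes with a mean above the limit, and it also had the lowest mean signal of all arrays before normalization.

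H2B is the partner of H2A, and 12 of its 13 genes were above background on all arrays. H2bc11 had the smallest p of these, with 1449, 1514 and 1320.0 on Klf4-deficient arrays, against 1749.8, 1894 and 2057 on control arrays. The log2 difference was -0.41 ± 0.08 (SE, adjusted p = 0.429, limma). H2bc14 read 682, 646 and 554 on Klf4-deficient arrays, against 731, 901 and 920.3 on control arrays (-0.43 ± 0.13, adjusted p = 0.543). H2bc15 (-0.40 ± 0.12), H2bc7 (-0.40 ± 0.15), H2bc21 (-0.39 ± 0.12) and H2bc6 (-0.37 ± 0.12) had groups that lay apart as well. H2bc12 read 1214, 1313 and 1039 on Klf4-deficient arrays and 1227, 1575 and 1735 on control arrays, which overlap (-0.34 ± 0.16). The exception was H2bc4, with 398, 326 and 307 on Klf4-deficient arrays and 257, 270.1 and 310.2 on control arrays, a difference of 0.28 ± 0.12 (adjusted p = 0.729). It was the single H2B gene above 0, and 1 of its 2 probes was under the limit on every array.

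H3 carries most of the modified tail residues known to mark active and silent chromatin. All 9 core H3 genes were above background on every array and below 0, between -0.29 and -0.68. H3c6 read 2581, 2634 and 2207 on Klf4-deficient arrays, against 2866, 3334 and 3321 on control arrays, a difference of -0.36 ± 0.10 (SE, adjusted p = 0.531, limma). H3c1 read 986, 1071 and 830.3 on Klf4-deficient arrays, against 1176, 1455 and 1321 on control arrays (-0.45 ± 0.13, adjusted p = 0.537). In each the groups lay apart by less than the spread within a group. H3c8, a dim gene, had the most negative difference of all members, with 56.6, 70.9 and 55.6 on Klf4-deficient arrays, against 80.3, 134 and 113 on control arrays (-0.68 ± 0.20, adjusted p = 0.547). H3c10 (-0.29 ± 0.09), H3c13 (-0.29 ± 0.10), H3c4 (-0.34 ± 0.12) and H3c14 (-0.32 ± 0.09) had groups that lay apart as well. H3c3 and H3c7 overlapped between groups, at -0.29 ± 0.14 and -0.33 ± 0.14.

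H4 pairs with H3 at the centre of the nucleosome and has no variant gene among the members. Its 13 genes were all above background and all below 0. H4c12 had nearly constant signals of 277, 279 and 277 on Klf4-deficient arrays, against 391, 510.4 and 450.4 on control arrays. The log2 difference was -0.66 ± 0.10 (SE, adjusted p = 0.379, limma), and the second probe of the gene gave -0.56 ± 0.09. H4c3 read 166, 153 and 168 on Klf4-deficient arrays, against 224, 269 and 243 on control arrays (-0.55 ± 0.08, adjusted p = 0.358). The highest Klf4-deficient value of each gene stood well under the lowest control value. H4c2 read 129, 138 and 115 on Klf4-deficient arrays, against 171, 223 and 188 on control arrays (-0.55 ± 0.12, adjusted p = 0.447), and its other probe above background gave -0.73 ± 0.13. H4c8 read 395, 437 and 371 on Klf4-deficient arrays, against 501, 519.9 and 569.8 on control arrays (-0.39 ± 0.08, adjusted p = 0.429). H4c4 (-0.50 ± 0.12), H4c11 (-0.42 ± 0.14), H4c18 (-0.40 ± 0.13), H4c9 (-0.37 ± 0.12) and H4c6 (-0.37 ± 0.13) also had groups that lay apart. H4c1 read 2573, 2759 and 2274 on Klf4-deficient arrays and 2709, 3562 and 3555 on control arrays, so control array 1 lay among the Klf4-deficient values (-0.36 ± 0.14, adjusted p = 0.672). H4c17 (-0.34 ± 0.17), H4f16 (-0.51 ± 0.23) and H4c14 (-0.10 ± 0.34) overlapped too.

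**Figure D3:**
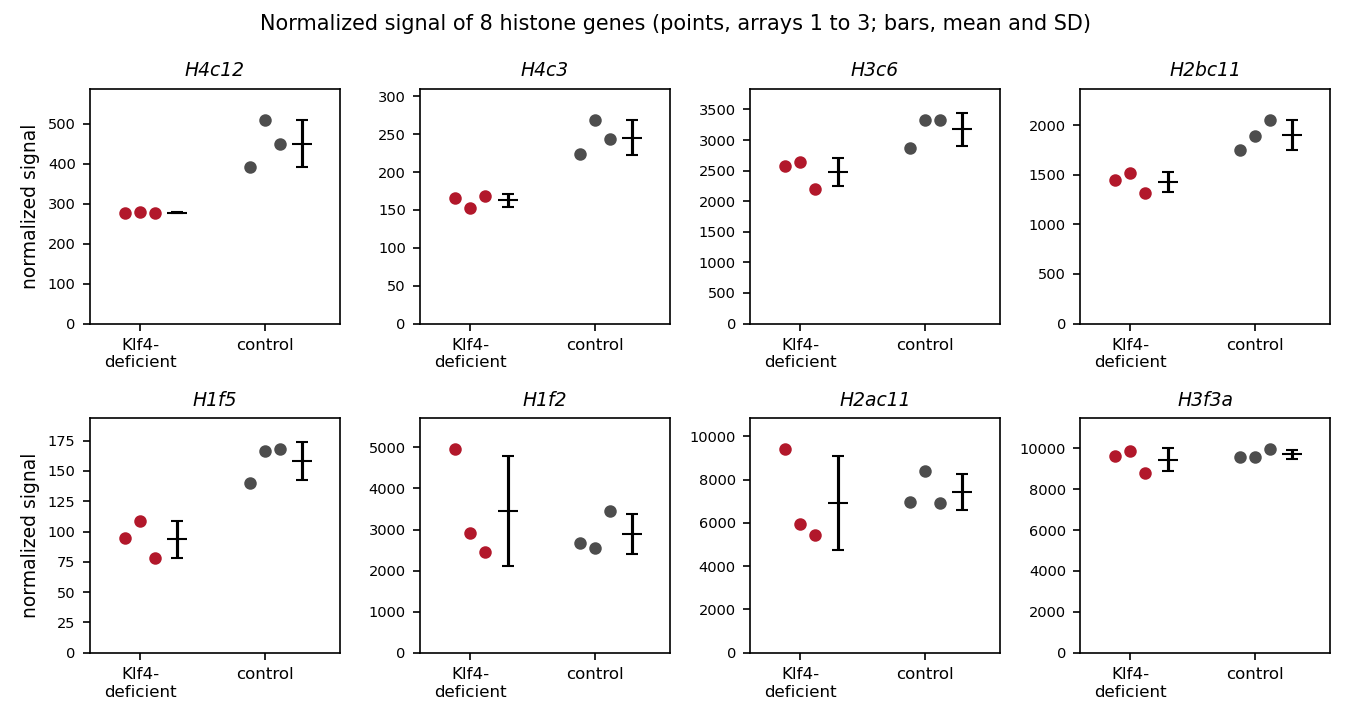
Normalized signal of 8 histone genes on Klf4-deficient (red, left) and control arrays (grey, right), 1 point per array, with the group mean and SD (n = 3 each); each panel starts at 0. H4c12, H4c3, H3c6, H2bc11 and H1f5 have groups that lie apart, and H1f2, H2ac11 and H3f3a overlap.

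The replication-independent variants were near their control level. H3f3a and H3f3b encode H3.3, which is placed in chromatin outside S phase. H3f3a read 9625, 9865 and 8788 on Klf4-deficient arrays and 9555, 9568 and 9967 on control arrays, a difference of -0.04 ± 0.05 (SE, adjusted p = 0.867, limma). H3f3b read 6385, 6855 and 6418 on Klf4-deficient arrays and 6448, 6483 and 7231 on control arrays (-0.04 ± 0.06, adjusted p = 0.929). The groups of each overlapped, and with the probe used per gene their differences were closer to 0 than that of any core H3 gene. The second, dim H3f3a probe, above the limit on 5 arrays, stood at -0.38 ± 0.42.

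H2az1 encodes H2A.Z, the H2A variant found around promoters. It read 10416, 10144 and 8493 on Klf4-deficient arrays and 9281, 12476 and 10495 on control arrays (-0.15 ± 0.14, adjusted p = 0.791). Its paralog H2az2 stood at -0.06 ± 0.19 and H2aj, a further H2A variant, at -0.05 ± 0.07. H2ax, whose protein is phosphorylated at DNA breaks, read 8824, 6436 and 5339 on Klf4-deficient arrays and 7354, 7870.1 and 7668 on control arrays (-0.18 ± 0.20, adjusted p = 0.815). Klf4-deficient array 1 was the highest and array 3 the lowest of the 6 for H2ax. The variant linker gene H1f10 read 692, 721 and 445 on Klf4-deficient arrays and 456, 983 and 877 on control arrays (-0.27 ± 0.37, adjusted p = 0.878). Its second probe stood at -0.49 ± 0.47. Among the histones outside the naming rule, Macroh2a1, which encodes a large H2A variant of silent chromatin, read 5260.4, 5816 and 4878 on Klf4-deficient arrays, against 6670.0, 5948 and 6636 on control arrays. Its groups lay apart, at -0.27 ± 0.09 (SE, adjusted p = 0.564, limma). Cenpa, the H3 variant of the centromere, stood at -0.06 ± 0.20, and Macroh2a2 was under the limit on every array.

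The 16 germline histones and pseudogenes served as genes that these cells should lack. The mean signal passed the limit for 2 of them, H2al1e and H2al1m, and no more than 52.7 was read on any array for H2al1e. Their differences were 0.08 ± 0.22 and 0.05 ± 0.22 (SE, limma), and the median over all 16 was 0.02. H2al1n, with groups that lay apart, was above the limit on 1 of 6 arrays, so no fold is given for it.

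Different probes of a gene mostly pointed the same way. Among members with at least 2 probes above background on all arrays, 17 of 20 had probes of 1 sign. The exceptions were H2ac18 (-0.08 and 0.14), H2ac7 (-0.22 and 0.0033) and H3c7 (-0.33 and 0.07). Counted by probe, 19 of 19 H4, 12 of 13 H3, 14 of 15 H2B, 18 of 21 H2A and 10 of 10 variant probes above background were below 0. Clustered histone genes of a class are close to identical in their coding parts, and the probe sequences were not used here. A signal may therefore stand for several copies, and differences between genes of a class are uncertain.

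Many H2A and H2B genes lie head to head and share the stretch between them. The order of RefSeq genes gave 8 neighbouring pairs of an H2A and an H2B gene with probes. The H2B gene was the lower in 7 of the 8. H2bc7 stood at -0.40 ± 0.15 beside H2ac7 at 0.0033 ± 0.075, and H2bc21 at -0.39 ± 0.12 beside H2ac20 at -0.0047 ± 0.079. H2ac15 and H2bc15 gave -0.16 ± 0.08 and -0.40 ± 0.12. The exception was H2ac6 at -0.29 ± 0.27 beside H2bc4 at 0.28 ± 0.12. H2ac7 and H2ac20 have second probes at -0.22 ± 0.08 and -0.50 ± 0.09, and with the second H2ac20 probe the H2A gene is the lower of that pair. The difference within a pair was not tested, and several of the H2A probes were among the brightest of the table.

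**Figure D4:**
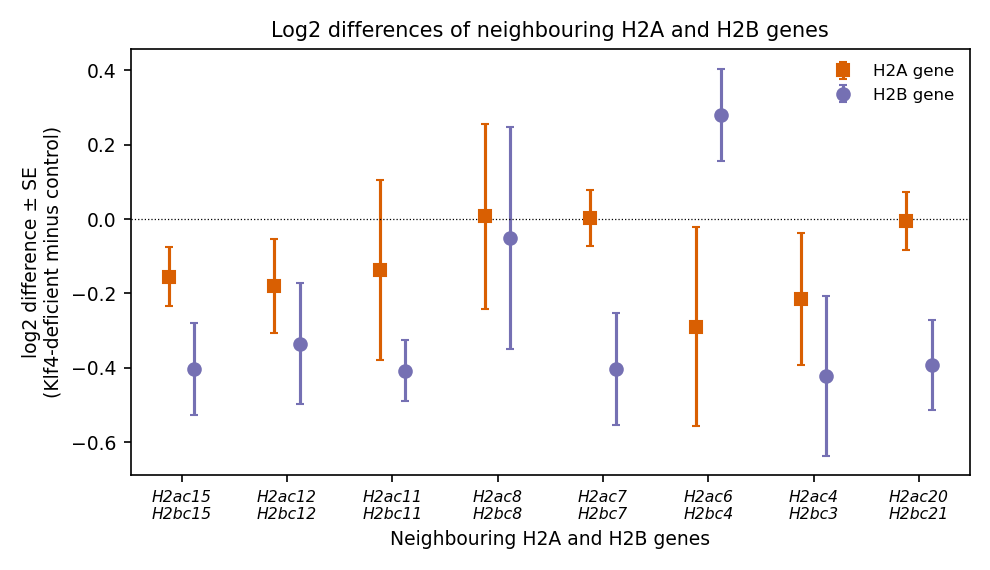
Log2 difference (Klf4-deficient minus control, ± SE, limma, n = 3 arrays each) of 8 neighbouring H2A (squares) and H2B genes (circles). In 7 of 8 pairs the H2B gene is the lower, with H2ac6 and H2bc4 as the exception.

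The values were also set out by chromosome. The 44 core and linker genes on chromosome 13, the main cluster in mouse, had a median difference of -0.34, and 20 of them were among the 25 lower genes. The 9 on chromosome 3 had a median of -0.25, with 4 of 9 among the 25. Over all genes on any chromosome the share lower at that threshold was 4.09%. H4f16 on chromosome 6, away from the clusters, stood at -0.51 ± 0.23. By class, the chromosome 13 and chromosome 3 genes had medians of -0.39 and -0.38 for H2B, -0.34 and -0.30 for H3 and -0.14 and -0.12 for H2A. The chromosome 3 medians rest on few genes: 2 H2B, 2 H3 and 4 H2A genes. The dim H2bc18 among them stood at -0.36 ± 0.32. The 11 H4 genes on chromosome 13 had a median of -0.40, and the single H4 gene on chromosome 3, H4c14, stood at -0.10 ± 0.34.

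On each array the median of a class relative to the control mean shows how the samples differed. For H4 it was -0.38, -0.31 and -0.51 on Klf4-deficient arrays 1, 2 and 3, against -0.23, 0.16 and 0.07 on control arrays 1, 2 and 3. For H3 it was -0.31, -0.26 and -0.51 on Klf4-deficient arrays, against -0.14, 0.11 and 0.07 on control arrays. For H2B it was -0.30, -0.30 and -0.54 on Klf4-deficient arrays, against -0.21, 0.08 and 0.13 on control arrays. The groups of these 3 classes did not overlap, and control array 1 lay nearest the Klf4-deficient arrays. The variants were at -0.03, -0.01 and -0.33 on Klf4-deficient arrays and at -0.09, 0.08 and 0.04 on control arrays. Here Klf4-deficient array 3 alone lay below the controls.

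Replication genes were compared because replication-coupled histone genes are read in the same phase. Of the 50 genes of G1/S and replication, such as the helicase subunits Mcm2 to Mcm7 and the clamp Pcna, 49 were measured. At an unadjusted p under 0.05, 0 were lower and 0 were higher, against 4.09% and 3.51% of all genes. The median difference of the list was -0.06. The smallest p belonged to Rpa1 (-0.14 ± 0.06, adjusted p = 0.704, limma), part of the protein that coats single-stranded DNA, and to Rfc4 (0.24 ± 0.10, adjusted p = 0.717), a clamp loader subunit. Rpa2 stood at -0.20 ± 0.13, and Prim1, a primase subunit, was under the limit on every array. By array the list's median was 0.13, -0.01 and -0.31 on Klf4-deficient arrays and -0.20, 0.14 and 0.04 on control arrays, so the groups overlapped. Control array 1 was the lowest and control array 2 the highest of the controls in this list and in H4, and Klf4-deficient array 3 was the lowest of its group in each. Taken relative to this list on the same array, the H4 level was -0.51, -0.30 and -0.21 on Klf4-deficient arrays and -0.03, 0.02 and 0.03 on control arrays. The H3 level was -0.44, -0.25 and -0.21 on Klf4-deficient arrays and 0.05, -0.03 and 0.03 on control arrays. The H2B level was -0.43, -0.29 and -0.23 on Klf4-deficient arrays and -0.01, -0.06 and 0.08 on control arrays. These offsets lay apart between groups for H4, H3 and H2B and overlapped for H2A, the linker genes and the variants. They were made after the level of each array had been seen, and were not tested.

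**Figure D5:**
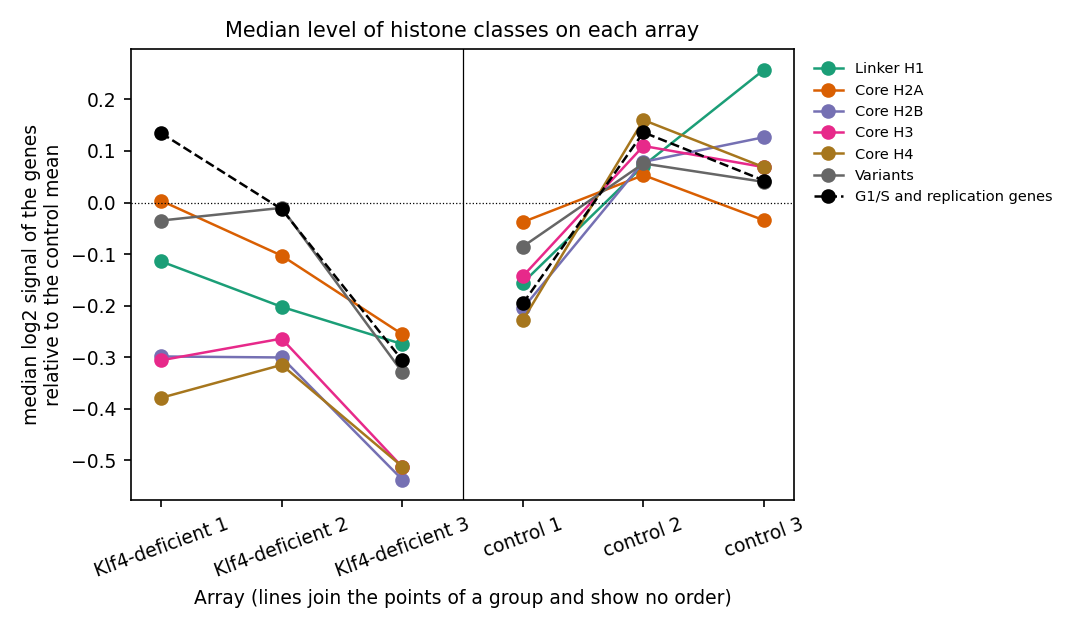
Median log2 signal relative to the control mean on each array, for the linker, core and variant histone genes and for 49 genes of G1/S and replication (dashed). H2B, H3 and H4 lie between -0.26 and -0.54 on Klf4-deficient arrays and between -0.23 and 0.16 on control arrays, while the replication genes lie between -0.31 and 0.13 on the Klf4-deficient arrays.

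Genes that transcribe and process histone messages were taken as a further list. Of 37 on the list 36 were measured, with a median of -0.01 and a range of -0.67 for Eri1, above the limit on 1 array, to 0.39 for Yy1, above it on none. At an unadjusted p under 0.05, 1 was lower and 2 were higher, near the shares of all genes (4.09% lower and 3.51% higher). Gon4l, a nuclear factor of the histone gene bodies, stood at -0.17 ± 0.04 (adjusted p = 0.444, limma), Wdr33, a subunit of the cleavage and polyadenylation complex, at 0.27 ± 0.07 (adjusted p = 0.529), and Srrt, which links the cap to 3′ processing, at 0.12 ± 0.03 (adjusted p = 0.520). Upf1, a helicase that takes part in histone message decay, was at 0.12 ± 0.05. The probes for Slbp, for Npat, which drives histone transcription, and for Casp8ap2 and Yy1 were under the limit on every array, so these regulators have no measured difference here.

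Histone chaperones, which carry histones to and from chromatin, were measured for 37 of 41 genes, with a median of 0.01. This list also holds Cenpa, which is itself a histone variant and not a chaperone. At an unadjusted p under 0.05, 0 were lower and 1 was higher, against 4.09% and 3.51% of all genes. The higher gene was Znhit1 of the complex that exchanges H2A.Z (0.09 ± 0.03, adjusted p = 0.537, limma). Set stood at -0.22 ± 0.09, Hira, the chaperone of H3.3, at 0.14 ± 0.06, and Ep400 at -0.10 ± 0.05. None of the genes on these 3 lists passed the adjusted threshold.

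Markers of other bone marrow cells varied between the arrays, and no gene on these lists passed the adjusted threshold (limma). In bulk RNA, fewer cells of a type and less RNA per cell cannot be told apart. All 16 measured erythroid genes were above 0 (median 1.16 on the log2 scale). Of these, 3 were higher at an unadjusted p under 0.05, where the share over all genes was 3.51%. The list's level was 0.19, 1.24 and 2.24 on Klf4-deficient arrays and -0.42, 0.12 and 0.18 on control arrays, and its summed signal ranged from 119222 to 144816 on Klf4-deficient and from 93255 to 115499 on control arrays. The monocyte list was at 0.16, 0.52 and 1.23 on Klf4-deficient arrays and -0.13, 0.20 and 0.00 on control arrays, with 22 of 23 genes above 0, 7 of them at an unadjusted p under 0.05, and sums of 16692 to 41202 on Klf4-deficient arrays against 13748 to 19551 on control arrays. The neutrophil list was at -0.20, -0.06 and 1.44 on Klf4-deficient arrays and at -0.04, 0.35 and -0.28 on control arrays, with 15 of 17 genes above 0, none at that threshold, and sums of 76187 to 175755 on Klf4-deficient arrays against 71760.3 to 106112 on control arrays. NK genes had sums of 2651 to 4172 on Klf4-deficient and 2036 to 3173 on control arrays, with 8 of 14 above 0 and 4 of these at that threshold. B lineage sums were 654 to 1135 on Klf4-deficient and 679.7 to 963 on control arrays (6 of 10 above 0). Among defining markers the macrophage receptor gene Csf1r read 59.1, 73.6 and 143 on Klf4-deficient arrays, against 37.5, 20.5 and 23.4 on control arrays. The NK receptor gene Klrd1 read 30.4, 81.8 and 73.1 on Klf4-deficient arrays, against 16.8, 14.6 and 9.10 on control arrays. Other NK genes went the other way: 4 of 14 were below 0, among them Klrb1c (-0.04 ± 0.43) and Prf1 (-0.18 ± 0.24). C1qb of macrophages read 225, 428 and 563 on Klf4-deficient arrays, against 143, 205 and 203 on control arrays. Pax5 of B cells, Ncr1 of NK cells, and Cd163, Itgax and Siglec1 of myeloid cells were under the limit on every array. The sorted-cell list stood at -0.09, -0.08 and -0.11 on Klf4-deficient arrays, against 0.03, -0.01 and -0.02 on control arrays, with 11 of 13 genes below 0 and sums of 80451 to 84137 on Klf4-deficient arrays against 86029.8 to 86917 on control arrays. The H4 level on Klf4-deficient arrays 1, 2 and 3 was -0.38, -0.31 and -0.51. Array 3 was the lowest of these in H4 and in the sorted-cell level, and the highest in the erythroid, monocyte and neutrophil levels. Array 2 was the least negative in H4 and in the sorted-cell level, and lay between arrays 1 and 3 in the erythroid, monocyte and neutrophil levels. The part of these other cells in the histone values was not tested.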

How the data were processed

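Total RNA of 6 samples was labelled with biotin and hybridised to Illumina bead arrays, 1 per sample. Per the submitters' processing notes BeadStudio gave the deposited intensity values, which are on a linear scale. Between 31.3% and 34.2% of the values of an array lie below 0. How background was removed, whether arrays were scaled and which genome build was used is not given in the sources used here. For the fits, negative values were raised to 0, an offset of 16 was added, and quantile normalization was run on log2 values. A normalized signal is that value back on the linear scale less 16. For each of 19057 genes with 1 symbol, the probe with the highest mean was used. Differences were fitted in limma 3.58.1 under R 4.3.3, using lmFit and a trended eBayes. P-values were adjusted by Benjamini-Hochberg, and the threshold was 0.05. The steps were tested on simulated data. The background limit was 3 times the SD of the mirrored negative values of an array. The number of arrays limits the precision.

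The members, lists and tests were chosen with earlier results of these data known. Values by array were planned, per class, for the 5 brightest members and the 4 with the smallest p, and for all variants, and from each related list the 4 genes with the smallest p. Other members complete the account. Gene names and promoters came from RefSeq (GRCm38.p6), and all 79 members matched a RefSeq gene. Alternatives covered the normalization, the offset, probe choice, dim probes, moderation, array weights, a replicate block and leaving out each array.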

Additional observations from a re-analysis of the deposited data

How the results depend on the processing

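No member passed the adjusted threshold under any of 18 alternatives (limma), and the medians of the linker, core and variant classes were below 0 in all of them. The 25 members lower at an unadjusted p under 0.05 became 14 with a replicate block, where 3.59% of all genes were lower. They became 10 to 30 when arrays were left out in turn, where 3.56% to 4.37% of all genes were lower. The count was 10 without control array 2 or control array 3 and 12 without Klf4-deficient array 3. The number higher was 0, and 1 with cyclic loess, where 4.08% of all genes were higher. Leaving out arrays gave medians of -0.49 to -0.34 for H4, -0.42 to -0.24 for H3, -0.48 to -0.29 for H2B, -0.17 to -0.06 for H2A, -0.36 to -0.15 for the linker genes, -0.17 to -0.02 for the variants and -0.29 to -0.13 for all members. The H2A median was -0.23 with no normalization between arrays. The median of all genes above the limit was -0.11 in that fit and -0.08 in the one with arrays centred on their medians. The linker median was -0.71 with an offset of 1 and -0.57 with the brighter probes only. Correlations of same-numbered deviations from the group means were 0.185, -0.043 and -0.176 over 9208 genes, and not every array correlated best with its own number. Whether the replicate numbers pair the samples is not settled by this, because deviations within a group of so few arrays depend on one another. After the data were seen, members with a mean signal under 10000 were counted alone, which gave 25 lower and an H2A median of -0.15. Of all genes at any signal 4.09% were lower, and the share under 10000 was not counted.

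Of 774 values of 43 named genes over the alternatives, 29 had the other sign, over 11 genes, and the causes were not tested. Left-out arrays gave -0.0964 to 0.408 for H1f2, with the lowest value without Klf4-deficient array 1, -0.0338 to 0.0219 for H2ac10, -0.0568 to 0.0305 for H2ac20, -0.0467 to 0.0372 for H2ac7, -0.0966 to 0.0129 for H2aj, -0.174 to 0.133 for H2az2, -0.0756 to 0.00577 for H3f3a, -0.0694 to 0.0189 for H3f3b, -0.0826 to 0.207 for H2al1e and -0.0970 to 0.259 for H2al1m. With cyclic loess H2ac10 was 0.0420, H2ac13 0.0324 and H2ac20 0.0311. With array weights H2ac10 was 0.0207, H2ac13 0.0151 and H2az2 0.00449. With no normalization H2ac7 was -0.0983 and H2al1m -0.00439, with centred medians H2ac7 was -0.0730, and over the mean of their probes H2ac7 was -0.109 and H2al1e -0.129. Signals near the background limit restrict what the dim linker genes show, and signals among the brightest of the table restrict the bright H2A genes.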
